A study of Homo sapiens with 5 samples.

Results

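The histone genes were followed through a mixture series of poly(A) RNA from 2 human lung adenocarcinoma cell lines. Members were all protein-coding genes of the GENCODE v44 annotation whose names start with H1-, H2AC, H2AZ, H2AX, H2AJ, MACROH2A, H2BC, H3C, H3-, H4C or H4-, which gave 85 of the 61220 genes that could be matched to the deposited tables. Of these, 69 lie in the histone clusters (55 in the large cluster of chromosome 6, 11 on chromosome 1q21 and 3 on 1q42), 11 are replacement variants and 5 are other genes outside the clusters. GENCODE lists 213 transcripts for them, and 172 were in the tables.

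NCI-H1975 and HCC827 are established epithelial tumour lines. RNA of NCI-H1975 with spike-in mix A and RNA of HCC827 with spike-in mix B were combined in mass ratios running from 100:0 over 75:25, 50:50 and 25:75 to 0:100, with 1 library per ratio, and libraries are named by that ratio, NCI-H1975 first. Each line was represented by 1 RNA preparation of cells grown to near confluency, so spread about a trend says nothing of differences between cultures. All 5 libraries shared selection of poly(A) RNA on beads, PCR-amplified nanopore cDNA and a size selection. The question the series poses for these genes is which of them separate the 2 RNAs when only polyadenylated transcripts are captured.

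Histones package DNA: H2A, H2B, H3 and H4 form the nucleosome core and H1 binds the linker. The replication-dependent genes lie in clusters, are transcribed in S phase, and give most of their mRNA with a conserved stem-loop at the 3′ end in place of a poly(A) tail. Replacement variant genes lie outside the clusters and are expressed throughout the cell cycle as ordinary polyadenylated mRNA. A poly(A)-selected library therefore is not a measure of total replication-dependent histone mRNA.

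The stem-loop was located first, because it separates the gene classes and marks where a canonical histone mRNA ends. The letters GGNNCTNTTNAGNNCC were searched on the coding strand in the 150 bases behind the stop codon (hg38). They were found in 66 of 69 clustered genes (95.7%), in 1 of 11 replacement genes, in 2 of the 5 others (H3-7 and H4C16) and in 4 of 19839 other protein-coding genes (0.0202%). The 3 clustered genes in which these letters were not found were H2BC10, H3C6 and H4C13. The 1 replacement gene was H2AX. Of the 69 loops found among members, 41 read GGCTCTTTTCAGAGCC, 10 read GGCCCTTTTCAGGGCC, 10 read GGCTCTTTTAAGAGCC and 4 read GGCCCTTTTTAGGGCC, and the others occurred in 1 gene each. The loops of 6 genes on which the results turn are given here 5′ to 3′ on the coding strand. Capitals mark the 16 letters of the motif.
H2BC9 (chr6:26252050-26252075, plus strand): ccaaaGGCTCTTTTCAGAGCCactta
H2AC11 (chr6:27133510-27133535, plus strand): ccaacGGCTCTTTTCAGGGCCaccca
H4C11 (chr6:27824454-27824479, plus strand): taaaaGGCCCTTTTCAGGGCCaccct
H2BC21 (chr1:149886183-149886208, minus strand): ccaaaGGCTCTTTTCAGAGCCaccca
H2AC25 (chr1:228457364-228457389, minus strand): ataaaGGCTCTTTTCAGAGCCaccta
H2AX (chr11:119094893-119094918, minus strand): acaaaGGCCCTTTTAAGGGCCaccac

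The poly(A) signal AATAAA lay within 30 bases behind the loop in 4 of the 66 clustered genes (6.06%). A window of the same length in other protein-coding genes, bases 61 to 90 behind the stop codon, held it in 2.58%. The 4 genes were H1-2, H2AC18, H2AC19 and H2BC5, which are among the 6 clustered genes with most reads. Of the 830 H2BC5 reads, however, 814 lay on a transcript that splices the loop out. H2AC18 and H2AC19 are identical copies and so are not separate cases. Over 3000 bases, 62 of the 66 had an AATAAA, at a median of 960 bases behind the loop (range 12 to 2990). The stretches of 3 of the 4 genes are shown because here the 2 kinds of 3′ end lie side by side. Capitals mark the 3′ part of the loop and the AATAAA, and the stretch of H2AC18 has the same letters as that of H2AC19.
H1-2 (chr6:26055726-26055755, minus strand): CTTTTCAGAGCCaccactgatctcAATAAA
H2AC19 (chr1:149851579-149851608, plus strand): TTTTCAGAGCCacccacgttttcaAATAAA
H2BC5 (chr6:26158591-26158620, plus strand): CTTTTAAGAGCCacgcatgttttcAATAAA
A match of letters is a description and shows neither cleavage nor use of a site.

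Libraries held between 2932250 and 4058751 assigned reads, and mitochondrial transcripts took from 5.64% of them in the 100:0 library to 8.85% in the 0:100 library, in order of the mixture. Spike-in reads numbered 5475 in the 100:0 library and 0 in the 0:100 library, although the labels assign a spike-in mix to each line, and they entered no result here. The epithelial markers summed to 5575 CPM in the 100:0 library and 15794 CPM in the 0:100 library, and 5 of 6 rose along the series. Of 10 markers of blood, fibroblast and endothelial cells, 4 had no read and COL1A1, a collagen gene of mesenchymal cells, fell from 532 to 19 reads. The part of these shifts in the results below was not tested. In bulk RNA, a different share of cells in S phase and a different amount of histone RNA per cell cannot be told apart.

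Histone genes together took 0.434% of all reads in the 100:0 library, 0.392% in 75:25, 0.358% in 50:50, 0.325% in 25:75 and 0.302% in the 0:100 library. Levels below are CPM, that is reads relative to library size, scaled by the trimmed mean of M-values (TMM), which sets the bulk of genes equal between libraries. On that scale the replacement genes summed to 3338, 3286, 3206, 3174 and 3163 CPM in the order of the series. The 0:100 to 100:0 ratio of the sum was 0.947 (95% interval 0.921 to 0.975, counting error only). The clustered genes summed to 392, 384, 351, 315 and 300 CPM, a ratio of 0.766 (0.701 to 0.836). Without H2BC5, the clustered gene with most reads, the sums were 316, 316, 303, 287 and 296 CPM and the ratio was 0.937 (0.854 to 1.03). On this scale the net drop in the clustered sum thus depended mostly on 1 gene. Of the 22 clustered genes tested below, 7 fell and 5 rose, so changes of other genes partly cancelled within the sum. With library totals in place of TMM, the sum went from 454 to 261 CPM (ratio 0.575, 0.526 to 0.628), and without H2BC5 from 365 to 257 CPM (0.704, 0.641 to 0.772).

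Clustered genes made up 10.5%, 10.4%, 9.84%, 8.996% and 8.66% of histone reads from 100:0 to 0:100. Per kilobase of deposited transcript length, a comparison added after seeing the data, their shares were 14.3%, 14.4%, 14.3%, 13.4% and 13.3%. Those lengths equalled GENCODE v44 for 25.3% of clustered and 89.7% of replacement transcripts, which limits this comparison. By family, the clustered H2B genes summed to 141 CPM in the 100:0 library and 65.4 CPM in the 0:100 library, a ratio of 0.466 (0.390 to 0.555). Without H2BC5, a comparison added after seeing the data, the H2B sums were 63.6 and 60.6 CPM, a ratio of 0.952 (0.772 to 1.17). The clustered H3 genes had a ratio of 0.485 (0.275 to 0.827) on 52 and 20 reads. The intervals of the other families included 1, with ratios of 0.886 (0.762 to 1.03) for H2A, 0.819 (0.618 to 1.08) for H1 and 1.18 (0.978 to 1.42) for H4. By place, the 3 genes of the 1q42 cluster had a ratio of 3.79 (2.50 to 5.88), the 1q21 cluster 0.656 (0.559 to 0.768) and the large cluster of chromosome 6 0.715 (0.637 to 0.801). Without H2BC5 the ratio of the chromosome 6 cluster was 1.01 (0.891 to 1.14).

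Detection differed by class. Of the 69 clustered genes, 53 had a read in the series and 22 reached 10 reads in at least 2 libraries, the limit for testing. Of the 11 replacement genes, 10 had a read and 9 were tested, and of the 5 others 3 had a read and 2 were tested. The 9 tested replacement genes were the 9 members with most reads, from 15828 for H3-3A down to 1445 for H2AX. The first clustered gene, H2BC5, followed with 830. Between detection and the limit lay 33 members, with 1 to 36 reads over all libraries and a median of 4, the most in H3C8. No read was assigned to 19 members, among them H1-1, H1-5, H3C1, H4C6 and the replacement gene MACROH2A2, and a count of 0 allows up to 3 reads in a library. H3-5, a variant of H3.3 type, had 0, 0, 1, 1 and 2 reads.

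Change along the series was tested as a slope: log2 expression was regressed on the mass share of HCC827 (edgeR quasi-likelihood test, Benjamini-Hochberg adjustment over all 13492 genes tested, threshold 0.05). It gives the log2 difference of pure HCC827 from pure NCI-H1975 RNA as fitted, so a negative slope means a lower level in HCC827 RNA. Levels in a mixture are linear in mass share and not in log2. A large slope can therefore differ from the log2 ratio of the pure libraries. Of the 33 tested histone genes, 19 passed, 8 rising and 11 falling, beside 45.8% of all genes tested (23.5% rising and 22.3% falling). Of 22 clustered genes 12 passed, 5 rising and 7 falling. Of 9 replacement genes 6 passed, 3 rising and 3 falling, and of the 2 others H3-7 fell. The levels of 13 of the 19 were in order over the 5 libraries, beside 57.8% of all genes that passed. These shares lay near that of all genes, and the test compares 2 RNA preparations. Sizes differed more: the median absolute slope was 1.37 over the 22 clustered genes, 0.65 over the 9 replacement genes and 0.66 over all genes (the clustered genes had fewer reads). Directions are relative to the TMM scaling, under which the median slope of all genes was -0.03. With library totals alone it was -0.44, and 24 histone genes passed, 6 rising and 18 falling.

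**Figure D1:**
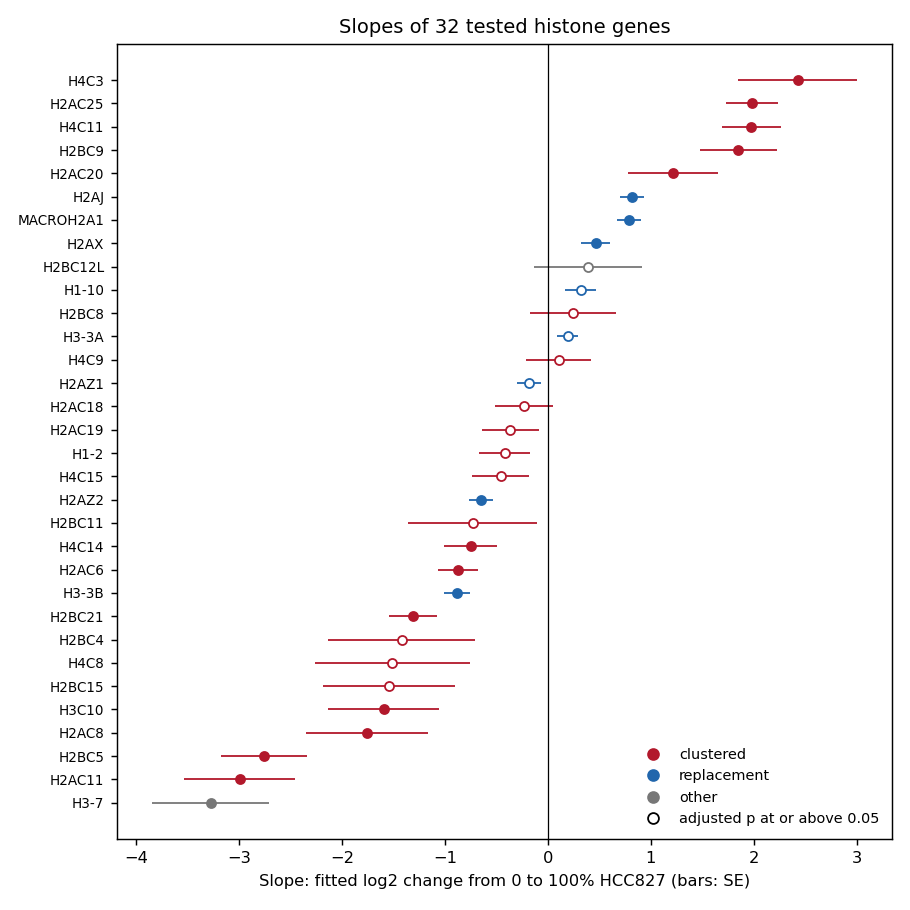
Fitted slope (log2 change from 0 to 100% HCC827, horizontal axis; bars are the standard error) of 32 tested histone genes, coloured by class, with open circles where the adjusted p was 0.05 or above. Clustered genes stand at both ends of the order, from -2.99 for H2AC11 to 2.43 for H4C3, and the replacement genes shown lie between -0.88 and 0.82.

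Of the linker histones, 2 are described here. H1-10, an unclustered linker variant, stood at 338, 389, 369, 344 and 470 CPM, which is no order along the series. It did not pass (slope 0.32 ± 0.15, adjusted p = 0.0971, edgeR), and its slope was -0.09 with library totals, -0.01 without the 0:100 library, and 0.43 (adjusted p = 0.0216) without the 25:75 library. A lncRNA on the opposite strand of H1-10 had 47 reads against its 6515.

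H1-2 was the 1 clustered linker gene tested, and with 511 reads it ranked behind H2BC5 and H2AC6 among clustered genes. It stood at 39.2, 28.3, 27.2, 23.8 and 30.5 CPM, highest in pure NCI-H1975 and lowest at 25:75, and did not pass (slope -0.42 ± 0.25, adjusted p = 0.180, edgeR). The pure libraries pull this value in opposite directions: the slope was 0.05 without 100:0 and -0.92 (adjusted p = 0.0296) without 0:100, and with library totals it was -0.83 (adjusted p = 0.0135). Of the 5 other clustered H1 genes, 2 had reads, 7 for H1-3 and 4 for H1-4.

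Among replacement H2A genes, 3 rose and 1 fell. H2AJ, an unclustered H2A linked to senescent and luminal epithelial cells, stood at 168, 199, 216, 247 and 306 CPM, higher at every step towards HCC827. It rose with a slope of 0.82 ± 0.12 (adjusted p = 0.000119, edgeR), and nearly all of its reads (97.7% to 99.5% by library) lay on 1 transcript, H2AJ-203. MACROH2A1, which encodes an H2A with a large macrodomain found on silenced chromatin, stood at 107, 129, 140, 164 and 187 CPM. It also rose at every step, with a slope of 0.79 ± 0.12 (adjusted p = 0.000172, edgeR). With library totals alone, the slopes of H2AJ and MACROH2A1 were 0.41 and 0.38, and both still passed.

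H2AX, the variant phosphorylated at DNA breaks, stood at 73.6, 81.1, 78.0, 91.6 and 104 CPM. It rose by a slope of 0.46 ± 0.14 (adjusted p = 0.0150, edgeR), but the slope was 0.35 (adjusted p = 0.190) without the 0:100 library and 0.06 (adjusted p = 0.745) with library totals. H2AX is the replacement gene that carries the stem-loop printed above, and it is known to give both kinds of 3′ end. Both of its models, H2AX-202 and H2AX-201, keep the loop and end 1024 and 1019 bases behind it. H2AX-202 held 89.5% to 91.4% of its reads, which does not show which 3′ end was used.

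H2AZ1 and H2AZ2 encode the near-identical H2A.Z proteins found at gene starts and regulatory elements. H2AZ1 stood at 349, 341, 333, 345 and 295 CPM and did not pass (slope -0.18 ± 0.12, adjusted p = 0.233, edgeR), although it did with library totals (-0.59, adjusted p = 0.00116). H2AZ2 stood at 353, 318, 289, 268 and 218 CPM, lower at every step, and fell with a slope of -0.65 ± 0.12 (adjusted p = 0.000650, edgeR). H2AZ2 fell in every alternative run, between -1.06 with library totals and -0.54.

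The H3.3 genes H3-3A and H3-3B encode the same protein, the H3 form placed outside replication, from separate mRNAs. H3-3A stood at 876, 902, 909, 943 and 1012 CPM and did not pass (slope 0.19 ± 0.10, adjusted p = 0.142, edgeR), with a slope of -0.21 under library totals. H3-3B stood at 827, 684, 652, 568 and 421 CPM, lower at every step, and fell with a slope of -0.88 ± 0.13 (adjusted p = 0.000127, edgeR). UNK, on the opposite strand and overlapping H3-3B, had 273 reads against 11055.

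A share within a pair of genes does not depend on library scaling. H3-3B gave 48.6% of the reads of H3-3A and H3-3B in the 100:0 library (95% Wilson interval 47.3 to 49.9), 43.1% in 75:25, 41.8% in 50:50, 37.6% in 25:75 and 29.4% in 0:100 (28.0 to 30.8). Per kilobase of transcript its share ran from 39.7% to 23.6%. H2AZ2 gave 50.3% of the reads of H2AZ1 and H2AZ2 (48.3 to 52.3), then 48.3%, 46.5% and 43.7%, and 42.5% in 0:100 (39.9 to 45.1). Per kilobase its share ran from 63.5% to 56.1%. Both shares were in order over the 5 libraries. The slopes were -17.6 and -8.07 percentage points, each with p = 0.0167 when all 120 orders of the libraries were enumerated (exact permutation, two-sided; the smallest value possible here; adjusted p = 0.0167 over the 2 pairs tested). The mixed libraries were blends of the same 2 RNAs, so an ordered share follows once the pure libraries differ. The permutation p therefore adds little to the difference between the pure libraries. The protein of the H3.3 pair is the same from both genes, so the balance within that pair concerns the mRNAs.

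**Figure D2:**
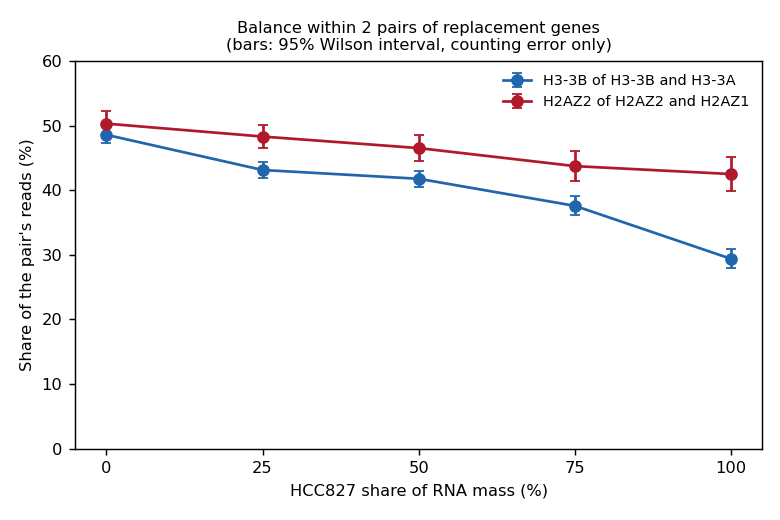
Share of a pair's reads (%) taken by H3-3B of H3-3A and H3-3B, and by H2AZ2 of H2AZ1 and H2AZ2, against the HCC827 share of RNA mass (%); bars are 95% Wilson intervals for counting error. Both lines descend at every step, from 48.6% to 29.4% for H3-3B and from 50.3% to 42.5% for H2AZ2.

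Clustered H2A genes went in both directions. H2AC11 (ENSG00000196787.4), on chromosome 6, had 39, 38, 20, 9 and 2 reads, which is 11.5, 8.80, 5.13, 3.15 and 0.74 CPM. It was lower at every step and fell with a slope of -2.99 ± 0.54 (adjusted p = 0.000624, edgeR). H2AC6, the clustered H2A gene with most reads, stood at 46.8, 40.1, 36.7, 26.9 and 26.8 CPM and fell with a slope of -0.87 ± 0.19 (adjusted p = 0.00265, edgeR). H2AC8 had 23, 26, 17, 12 and 3 reads and fell with a slope of -1.76 ± 0.59 (adjusted p = 0.0278, edgeR). Its call was lost with DESeq2 (adjusted p = 0.0639) and without the 100:0, 75:25 or 0:100 library (adjusted p = 0.0531, 0.0678 and 0.247).

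H2AC25 (ENSG00000181218.6), the H2A gene of the small 1q42 cluster, was the clustered H2A gene with the smallest adjusted p. It stood at 8.84, 11.6, 18.7, 23.8 and 34.6 CPM, higher at every step, and rose with a slope of 1.99 ± 0.25 (adjusted p = 5.19e-05, edgeR). It held 314 of the reads of its cluster, and its neighbour H2BC26 held 11. H2AC20 on 1q21 had 14, 22, 26, 18 and 28 reads and rose with a slope of 1.21 ± 0.44 (adjusted p = 0.0370, edgeR). That call was lost in 6 of 12 alternatives, among them without the 100:0, 75:25 or 0:100 library (adjusted p = 0.123, 0.0791 and 0.327).

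H2AC18 and H2AC19 have transcripts identical over 533 bases, so reads cannot be assigned between them. H2AC19 stood at 25.3, 31.3, 29.8, 28.0 and 18.6 CPM, highest in the mixed libraries, and did not pass (slope -0.36 ± 0.27, adjusted p = 0.295, edgeR). It passed with library totals (slope -0.77, adjusted p = 0.0299) and without the 100:0 library (-0.84, adjusted p = 0.0481), and had a slope of 0.13 without the 0:100 library. The reads of both copies together were 0.767 times as frequent in the 0:100 library as in the 100:0 library (0.589 to 0.995, counting error only).

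Of the clustered H2B genes, H2BC5 (ENSG00000158373.9; chr6:26158122-26171349) had most reads. It had 261, 291, 186, 79 and 13 reads in the order of the series, or 76.9, 67.4, 47.7, 27.6 and 4.83 CPM. The level was lower at every step and 15.9-fold higher in pure NCI-H1975 than in pure HCC827 RNA. H2BC5 fell with a slope of -2.76 ± 0.42 (adjusted p = 0.000185, edgeR) and passed in every alternative run, with slopes from -3.71 to -1.86. H2BC21 on 1q21 stood at 35.1, 33.1, 23.4, 20.6 and 13.8 CPM, lower at every step, and fell with a slope of -1.31 ± 0.24 (adjusted p = 0.000664, edgeR).

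H2BC9 (ENSG00000275713.3) went the other way, at 5.01, 14.1, 19.8, 18.2 and 29.0 CPM. It rose with a slope of 1.85 ± 0.37 (adjusted p = 0.00146, edgeR), with 17 reads in pure NCI-H1975 RNA and 52 to 78 in the other libraries. Without the 100:0 library the slope was 1.22 (adjusted p = 0.0115). H2BC5 and H2BC9 lie in the same cluster of chromosome 6 and code for H2B proteins of near-identical sequence. The 4 other tested H2B genes of the clusters did not pass: H2BC4, H2BC8, H2BC11 and H2BC15 had 57 to 140 reads each and slopes between -1.54 and 0.24.

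Clustered H3 genes were scarce in these libraries. Of 14, 10 had a read and 1 was tested. H3C10 had 29, 33, 17, 17 and 5 reads and fell with a slope of -1.60 ± 0.54 (adjusted p = 0.0286, edgeR), but the adjusted p was 0.0730 with DESeq2 and 0.0687, 0.0738 and 0.243 without the 100:0, 75:25 or 0:100 library. H3-7 (ENSG00000273213.4), an H3 gene of chromosome 1 outside the clusters as defined here, had 52, 44, 31, 9 and 1 reads, lower at every step. It fell with a slope of -3.27 ± 0.57 (adjusted p = 0.000491, edgeR), the most negative among members. Its main model, H3-7-202, is spliced and held 128 of the 137 reads of the gene. That model matched H2BC18-201, of a clustered H2B gene, at 91.9% of 492 bases, and how such reads were divided is not given. The other unclustered gene tested, H2BC12L, had 13 to 17 reads in each library and did not pass (slope 0.39 ± 0.52, adjusted p = 0.565, edgeR).

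All H4 genes encode the same or nearly the same H4 protein. H4C11 (ENSG00000197238.5) stood at 6.19, 12.5, 15.9, 22.4 and 29.0 CPM, higher at every step, and rose with a slope of 1.98 ± 0.29 (adjusted p = 0.000138, edgeR). H4C12 matched it over 99.0% of bases, so some of its 279 reads could belong to that copy, to which 1 read was assigned. H4C3 had 4, 19, 15, 15 and 31 reads and rose with a slope of 2.43 ± 0.58 (adjusted p = 0.00435, edgeR), but the slope was 1.85 (adjusted p = 0.146) without the 0:100 library. H2BC4, on the opposite strand, overlaps H4C3 only through a GENCODE model that was not in the deposited tables. The H2BC4 models that held its 70 reads do not reach H4C3.

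H4C14 stood at 24.5, 23.6, 17.96, 19.6 and 13.8 CPM and fell with a slope of -0.75 ± 0.26 (adjusted p = 0.0303, edgeR). H4C14 shares a transcript of 1547 identical bases with H4C15. Its call was lost with DESeq2 (adjusted p = 0.116) and without the 100:0, 75:25 or 0:100 library (adjusted p = 0.0828, 0.0725 and 0.222). Their reads together were 0.588 times as frequent in the 0:100 as in the 100:0 library (0.441 to 0.778, counting error only). H4C8, H4C9 and H4C15 did not pass.

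**Figure D3:**
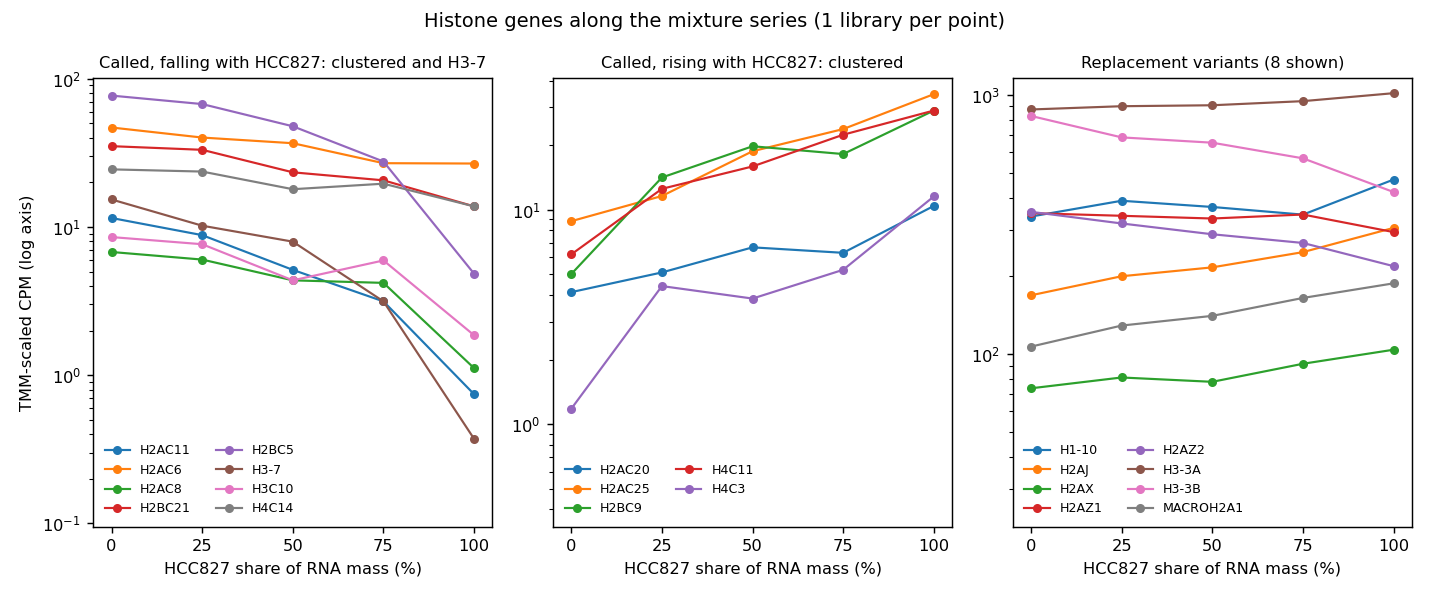
Level (TMM-scaled CPM, log axis) of the 8 clustered or other genes that fell, the 5 clustered genes that rose and 8 tested replacement genes, against the HCC827 share of RNA mass (%), with 1 library per point. H2BC5 runs from 76.9 down to 4.83 CPM and H2AC25 from 8.84 up to 34.6 CPM, while the replacement genes shown span 73.6 to 1012 CPM.

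Positions were compared next. In the large cluster of chromosome 6, 3 of 15 tested genes rose (H4C3, H2BC9 and H4C11) and 5 fell (H2AC6, H2BC5, H2AC8, H2AC11 and H3C10), beside 23.5% rising and 22.3% falling of all genes. Histone genes are often arranged head to head, and 13 pairs of members had starts within 1000 bases on opposite strands. In 4 of these pairs both genes were tested. In 1 pair both passed: H2BC21 fell (-1.31) and H2AC20 rose (1.21) from starts 236 bases apart, with the limit on the H2AC20 call given above. H2AC8 fell, whereas H2BC8, whose start lies 233 bases away, had a slope of 0.24 ± 0.41 (adjusted p = 0.655, edgeR), or -0.16 with library totals. The difference between neighbours was not tested.

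**Figure D4:**
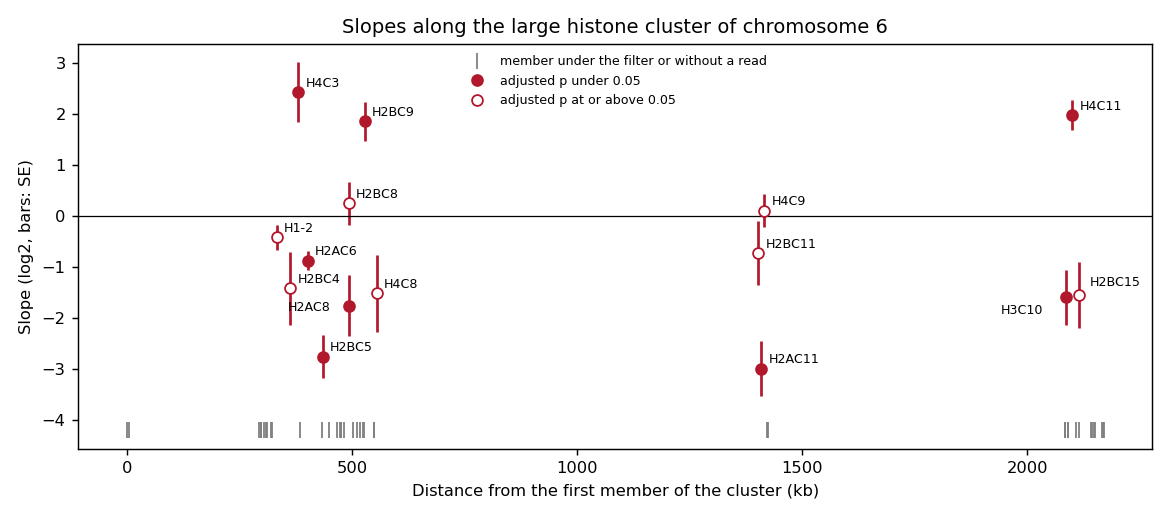
Slope (log2, bars are the standard error) of the 15 tested genes of the large cluster on chromosome 6 against distance from its first member (kb), with ticks for members that had no read or too few to test. H2BC9, which rose (1.85), stands between H2AC8 (-1.76) and H2AC11 (-2.99), which fell.

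Promoter letters were compared between the classes in the RefSeq windows of 250 bases before to 50 bases after a start (GRCh38.p14, both strands), which held 77 of the members. TATAAA occurred in 66.2% of 68 clustered promoters and in 11.5% of 35116 promoters. CCAAT occurred in 86.8% and 34.6%. The octamer ATTTGCAT, known from H2B promoters, occurred in 39.7% and 1.77%. Within the clusters it was found in 15 of 20 H2B promoters, 11 of 16 H2A promoters, 1 of 14 H3 promoters and none of the H1 or H4 promoters. The 150 bases before the start of H2BC5 and of H2BC9 are shown because these H2B genes of 1 cluster went in opposite directions. Capitals mark TATAAA, ATTTGCAT and CCAAT on either strand.
H2BC5 (chr6:26157971-26158120, plus strand): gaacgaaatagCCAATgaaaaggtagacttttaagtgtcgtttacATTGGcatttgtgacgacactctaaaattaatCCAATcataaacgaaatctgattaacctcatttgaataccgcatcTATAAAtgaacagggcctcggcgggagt
H2BC9 (chr6:26251464-26251613, plus strand): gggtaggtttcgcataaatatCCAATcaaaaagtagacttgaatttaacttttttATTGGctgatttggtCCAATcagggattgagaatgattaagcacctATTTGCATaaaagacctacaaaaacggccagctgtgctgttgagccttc
Both stretches held CCAAT, that of H2BC5 held TATAAA and that of H2BC9 the octamer. A match is a description of letters and not a bound site.

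The place where each annotated transcript ends was then compared with the stem-loop. Among clustered genes with the motif, models were sorted by the exons of GENCODE v44. A model could splice the loop out and end beyond it, keep the loop and end more than 20 bases behind it, or end within 20 bases of it. Models that splice the loop out held 1159 reads over 7 transcripts (19.2%), of which H2BC5-201 alone held 814 (70.2%). Models that keep the loop and run on held 1778 reads over 11 transcripts (29.5%), led by H2BC21-201 with 449. Some of these are spliced elsewhere, among them H2AC6-201 (256 reads), H4C15-202 (248), H4C14-204 (181) and H4C14-203 (166). Models that end at the loop in GENCODE held 1981 reads over 30 transcripts (32.8%), led by H1-2-201 with 511. A further 1118 reads over 15 transcripts (18.5%), led by H2BC9-201, lay on models that end at the loop in GENCODE but are listed over 100 bases longer in the deposited tables.

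That last group is a limit on any statement about ends. The deposited length equalled that of GENCODE v44 for 94.3% of all matched transcripts, for 89.7% of replacement transcripts and for 25.3% of the 91 clustered transcripts. Among unspliced models with at least 10 reads it was equal for 1 of 21 clustered transcripts and for 77.8% of 370 coding transcripts of all genes, and 9 of the 21 were over 100 bases longer. H2BC9-201 is 462 bases long in GENCODE and 2060 in the deposited tables, and H2AC11-201 is 493 and 2250. The annotation the authors counted on thus differed from GENCODE v44 at these genes, and a read assigned to a model does not show where that read ended.

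Models that splice the loop out took 26.2% of clustered reads in the 100:0 library (95% Wilson interval 23.9 to 28.7). They took 24.1%, 18.6% and 13.5% in the mixed libraries and 5.00% in the 0:100 library (3.69 to 6.74). Models ending at the loop took 27.9% (25.54 to 30.4), 28.9%, 34.7%, 36.0% and 42.5% (39.1 to 46.0). Models that run on past the loop took between 28.3% and 31.4%. Without H2BC5 the share with the loop spliced out was 8.44% (6.92 to 10.3), 8.22%, 6.23%, 5.25% and 3.43% (2.37 to 4.95). The share ending at the loop then ran from 34.4% (31.6 to 37.3) to 43.2% (39.8 to 46.7). The share that runs on past the loop was then 37.9% (35.0 to 40.8), 35.0%, 32.8%, 34.4% and 29.4% (26.3 to 32.6). Over the 5 libraries together, H2BC5 thus made up most of the reads with the loop spliced out. The other models that splice it out, of H2AC6, H2BC4, H2BC11 and H2BC15, took a lower share in pure HCC827 than in pure NCI-H1975 RNA. The intervals of that share did not overlap. All these shares pool genes with different slopes. Among models ending at the loop, H4C11-201 went from 21 to 78 reads between the pure libraries and H4C3-201 from 4 to 31. H1-2-201 went from 133 to 82 and H2AC19-201 from 86 to 50. The shares do not separate gene levels from a shift of ends within genes.

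**Figure D5:**
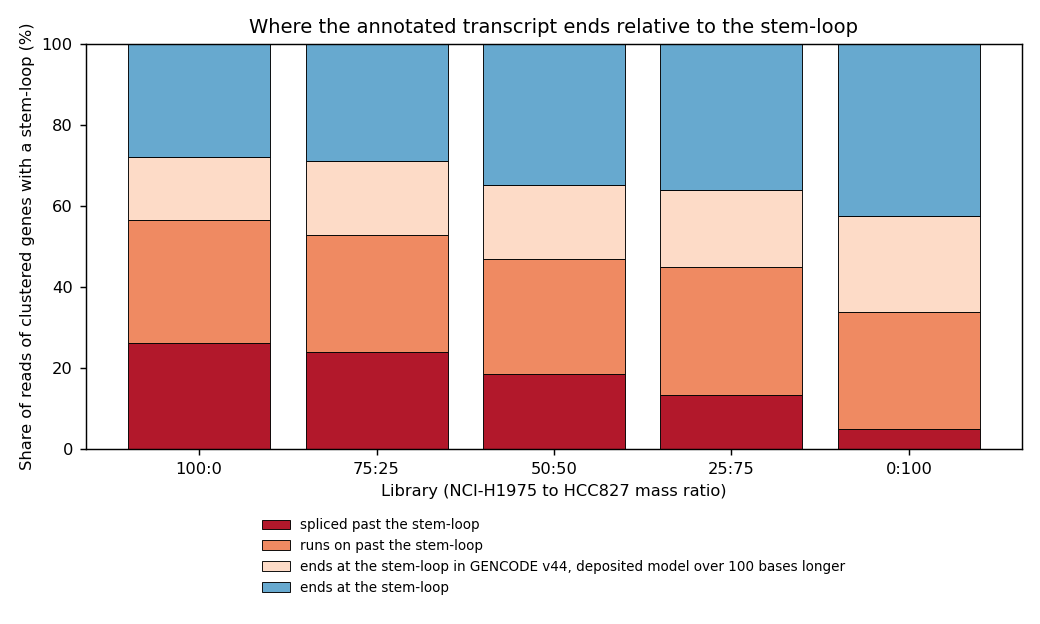
Share of reads of clustered genes with a stem-loop (%) by where the annotated transcript ends, in each library. The share on models that splice the loop out narrows from 26.2% in the 100:0 library to 5.00% in the 0:100 library. The share ending at the loop widens from 27.9% to 42.5%. Genes are pooled, so the levels of single genes enter these shares.

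At transcript level, 30 of 61 tested histone transcripts passed, 11 rising and 19 falling, beside 33.6% of all transcripts tested. All 4 tested models of H3-3B fell, with slopes of -0.91 for H3-3B-201, which held 68.1% to 70.4% of the gene's reads, and -0.95 for H3-3B-213. Of 6 tested models of H2AZ2, 5 fell, led in reads by H2AZ2-202 (-0.55) and H2AZ2-204 (-0.58). None of the 4 models of H2AZ1 passed. Models annotated with a retained intron held 54.6% to 57.1% of H2AZ1 reads in every library, with H2AZ1-204 alone at 38.6% to 41.1%. Of 6 models of H3-3A, 1 rose, H3-3A-203 (slope 0.35 ± 0.12, adjusted p = 0.0372, edgeR). It took 43.5% of H3-3A reads at 100:0 and 49.4% at 0:100, and it is 2263 bases long in the deposited tables against 1070 in GENCODE.

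MACROH2A1 had 10 tested models, and 4 rose. MACROH2A1-217, MACROH2A1-218 and MACROH2A1-205, with 672, 628 and 587 reads, had slopes of 0.68, 1.06 and 0.64, and MACROH2A1-219, with 70 reads, had a slope of 1.63. The other 6 (MACROH2A1-201, MACROH2A1-202, MACROH2A1-203, MACROH2A1-204, MACROH2A1-215 and MACROH2A1-216) had 38 to 131 reads each and slopes between -0.59 and 0.67. Of the clustered genes, H2AC6 had 3 tested models. H2AC6-203, which splices the loop out, fell (slope -1.35 ± 0.35, adjusted p = 0.00542, edgeR). H2AC6-201, which is spliced but keeps the loop, also fell (-0.77 ± 0.28, adjusted p = 0.0398, edgeR). H2AC6-202 did not pass (-0.74 ± 0.38, adjusted p = 0.138, edgeR). Models annotated for nonsense-mediated decay held 98.6% to 100% of the reads of H4C14 and 60.5% to 84.0% of those of H4C15. H4C15-201 and H4C14-201 are identical over 396 bases, and H4C15-202 and H4C14-204 over 1547. The difference between the 2 genes thus depends on how shared reads were assigned.

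Change in isoform usage was tested in the 9 member genes with at least 2 tested transcripts. With diffSpliceDGE of edgeR, 0 passed, beside 0.416% of the 7455 genes tested, and 0 had an unadjusted p under 0.05, beside 3.94%. With the gene-level F test of the same tool 0 passed and 2 had an unadjusted p under 0.05. For H4C14, which had the smallest unadjusted p in both, it was 0.110 and 0.0219. H3-3B, H2AZ2 and MACROH2A1 passed at gene level, and no change in the balance of their models was detected. On simulated mixtures the usage test found 62 of 194 genes with a log2 change of 2 in a model. A change in balance could therefore have been missed.

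Genes that act on histones were taken from fixed lists. Of 21 genes in the list for stem-loop dependent 3′-end formation, 4 passed (1 rising, 3 falling), beside 45.8% of all genes. The list also held genes of RNA decay, such as XRN1 and UPF1, and general processing factors. SLBP, which binds the stem-loop, stood at 42.7, 46.1, 40.5, 38.4 and 45.4 CPM and did not pass (slope -0.04 ± 0.18, adjusted p = 0.868, edgeR). CSTF2, a cleavage factor subunit, rose (0.90 ± 0.25, adjusted p = 0.00933), and SNRPD3, an Sm protein of the U7 particle, fell (-0.65 ± 0.14, adjusted p = 0.00207), as did DHX9, an RNA helicase (-0.48 ± 0.13, adjusted p = 0.0110). The list gave 8 calls, 0 of them rising, with library totals and 0 calls without the 0:100 library.

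Of 32 histone chaperones and deposition factors, 16 passed, 7 rising and 9 falling, a share near the 45.8% of all genes. IPO4, an importin that carries H3 and H4, stood at 31.8, 47.3, 59.3, 71.0 and 87.4 CPM and rose with a slope of 1.37 ± 0.16 (adjusted p = 3.21e-05, edgeR). SSRP1, a subunit of the H2A-H2B chaperone FACT, rose with a slope of 0.89 ± 0.12 (adjusted p = 6.33e-05, edgeR). ANP32E, which removes H2A.Z, stood at 110, 91.3, 85.2, 61.5 and 50.6 CPM and fell with a slope of -1.10 ± 0.15 (adjusted p = 7.65e-05, edgeR). ATRX, which deposits H3.3 with DAXX, fell with a slope of -0.90 ± 0.13 (adjusted p = 0.000156, edgeR), whereas DAXX rose (0.83 ± 0.19, adjusted p = 0.00361, edgeR). The count was 9 without the 0:100 library.

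Of 25 genes of S phase and proliferation, 13 passed, 7 rising and 6 falling, again near the 45.8% of all genes. CDT1, which licenses replication origins, rose from 25.3 to 268 CPM (slope 2.64 ± 0.35, adjusted p = 6.15e-05, edgeR), and AURKB, a mitotic kinase, rose (1.15 ± 0.18, adjusted p = 0.000213). MKI67, the proliferation marker Ki-67, fell from 76.3 to 38.7 CPM (slope -1.03 ± 0.16, adjusted p = 0.000221, edgeR), and RRM2, a subunit of ribonucleotide reductase, fell (-0.76 ± 0.16, adjusted p = 0.00207). Without the 0:100 library 8 passed.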

How the data were processed

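The authors deposited 1 table per library with transcript identifiers, lengths and an estimated count of reads per transcript, unscaled (expected counts). Minimap2 2.24, Salmon 1.9.0 and the build GRCh38 are named in the submitters' processing notes. The annotation release, the strand used in counting and the handling of shared reads are not given in the sources used here. In the tables, 161 identifiers were listed a second time and were summed, and 2 values that were not whole were rounded. Identifiers were matched to GENCODE v44 (GRCh38), transcripts were summed per gene, and spike-ins were left out of scaling.

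Tests used edgeR 4.0.16 (R 4.3.3; glmQLFit and glmQLFTest) on all 5 libraries after TMM scaling, for features with at least 10 reads in at least 2 libraries, with Benjamini-Hochberg adjustment. Standard errors were derived from the slope and its F statistic (slope over root F). DESeq2 1.42.0 was an alternative. The fit was checked on simulated mixtures. It called 2 of 50 genes with a simulated log2 change of 0.5 and 17 of 48 with 1. With changes of 2 and 3 it called 41 of 50 and 49 of 50, and 4 calls were false. With 1 RNA preparation per line, p-values measure spread between these libraries only.

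Genes named with values were every replacement variant with a read (1 that entered the counts and sums is not reported here), the clustered and other genes that passed with the largest slopes (up to 8 in each direction), the 5 clustered genes with most reads and, of each pathway list, SLBP and the 2 genes in each direction with the smallest adjusted p. Other genes were named as neighbours, copies or examples after their values were seen. Members and lists were chosen with earlier results of these data known. Intervals are 95% Wilson (shares) or exact (ratios of counts) and cover counting error only, since PCR copies count as reads.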

Additional observations from a re-analysis of the deposited data

How the results depend on the processing

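The alternatives were other scalings, no filter or 10 reads in every library, DESeq2, leaving out each library, and, added after seeing the data, summing identical copies, reads per kilobase counting longer deposited models as ending beyond the loop, and leaving H2BC5 out of the H2B sum, the chromosome 6 sum and the clustered sum under library totals. The count of 19 histone genes stayed between 13 and 24. Against 30 histone transcripts, 17 to 31 passed when 1 library was left out (16 to 29 of them among the 30), and the ranges were 0 to 4 for 3′-end formation, 9 to 16 for chaperones and 8 to 14 for proliferation genes. With library totals alone, 8 genes of 3′-end formation passed, the clustered sums were 454, 408, 293 and 261 CPM at 100:0, 75:25, 25:75 and 0:100 and the replacement sums 3865, 3495, 2951 and 2750 CPM, with ratios of 0.575 and 0.712. Without mitochondrial transcripts in the total, the sums were 424, 415, 380, 341 and 325 CPM for clustered and 3608, 3555, 3470, 3436 and 3426 CPM for replacement genes. Without H2BC5 the clustered sums were 316, 316, 303 and 287 CPM up to 25:75 and the ratio 0.937. Without H3-3A the replacement sums were 2463, 2384, 2297, 2231 and 2151 CPM, the ratio 0.873 and the clustered shares 13.7%, 13.8%, 13.2%, 12.3% and 12.2%. Per kilobase those shares were 14.3%, 14.4%, 14.3%, 13.4% and 13.3%. The share of clustered reads on models ending beyond the loop was 56.7%, 52.9%, 46.8%, 44.9% and 33.9%, or 72.1%, 71.1%, 65.3%, 64.0% and 57.5% with the longer deposited models. Over all 33 tested genes, 8 changed sign in some setting, with no adjusted p under 0.05 in the fit it changed from or to: H1-10 (-0.089 with library totals; -0.0068 to 0.43 with 1 library left out), H1-2 (-0.92 to 0.047), H2AC19 (-0.84 to 0.13), H3-3A (-0.21 with library totals), H2BC8, H2BC12L and H4C9 (-0.16, -0.0099 and -0.30 with library totals) and H2AC18 (0.063 without 0:100). The cause was not tested. Leaving out a library or tightening the filter also leaves fewer libraries or genes to test. No paired analysis was possible because each ratio has 1 library. Clustered genes with few reads limit what can be seen, since 47 of the 69 could not be tested.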
